A study of Mus musculus with 4 samples.

Results

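H3K27ac, the acetylation of lysine 27 of histone H3, marks active promoters and enhancers, and a gene can hold many acetylated enhancers in its introns, far from its start. This account covers the acetylated regions that were called in the list labelled control only and that lie inside protein-coding genes away from both gene ends. Such regions were found by merging the peaks of both deposited lists that touch or overlap. Merged regions without any peak of the list labelled BN1 were then kept if they overlapped a RefSeq protein-coding gene body (GRCm38.p6) but no window of 1000 bp to either side of a gene end. They were thus chosen by the presence of a peak in one list and its absence from the other, and any measure of the same peaks is a description. There were 9112 of them among 34906 merged regions, or 26.1% (95% exact binomial interval 25.6 to 26.6), and they covered 6.91 Mb. In any place, 47.7% of the merged regions were control-only and 20.5% BN1-only, so control-only regions were the larger class before genes were considered. They are called control-only intragenic regions below.

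The data come from fanChIP, a chromatin immunoprecipitation without crosslinking, of CD45.2+ bone marrow cells of C57BL/6 mice, untreated, with cKit(+) given as genotype for the control sample and cKit(+) BRD9-NUTM1 for the BN1 sample. The labels' extract protocol names sorted cKit+ BN1 cells for both. BRD9-NUTM1 is a leukaemia fusion that joins NUTM1 to BRD9, a bromodomain protein of one form of the BAF remodelling complex. NUTM1 is a protein that binds the acetyltransferase p300. The sources used here do not give the age and number of the animals or how the fusion was introduced. Each group had 1 ChIP library, which leaves every difference without replicates and without a test. The names of the peaks run against the sample titles (BRNU in the list labelled control, BM in the list labelled BN1), so each direction holds for the titles only. Read depth is unknown, and the list labelled control was the longer one, with 28315 placed peaks against 19140. Intervals cover counting error only.

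As background, intragenic enhancers are usually more cell-type specific than promoters. Lineage factors such as PU.1 open them, the acetyltransferases p300 and CBP acetylate the nucleosomes around them, and they may act on the gene they lie in or on a neighbour. In the marrow, macrophages are known for dense enhancer sets at genes of uptake, lysosomes, lipid handling and the actin cytoskeleton, while neutrophil granule genes and B cell genes carry other sets. A region inside a gene is therefore named here by the gene it lies in, which need not be the gene it acts on.

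Some control-only intragenic regions lay over an annotated start of an alternative transcript, and there the RefSeq promoter table (GRCm38.p6) gives the sequence beneath the region. Of the 9112 regions, 186 (2.04%, interval 1.76 to 2.35) overlapped such a start window (250 bases before to 50 after the start), against 93 of 3291 intragenic regions of the list labelled BN1 only (2.83%, 2.29 to 3.45) and 601 of 2198 shared intragenic regions (27.3%, 25.5 to 29.3). Most control-only intragenic regions thus lay away from annotated protein-coding starts, which the rule partly fixed in advance. It barred the gene ends, and with them the outermost starts, for each of these kinds of region. Clear of the gene end windows lay 3633 start windows of protein-coding genes. The 250 bases before 3 such starts are shown, for genes whose regions are described below and whose window lay wholly within the region, read 5' to 3' on the gene's strand, with matches to the 9 motifs searched in capitals. Creb5, a CREB-family transcription factor, is on the plus strand (chr6:53573124-53573373) within a region of 5396 bp with a fold enrichment of 23.2, and the capitals mark an AP-1 match. Dab2, a clathrin adaptor of endocytosis, is on the plus strand (chr15:6386498-6386747) within a region of 5855 bp with a fold enrichment of 17.6, and the capitals mark an E-box match. Nr1h3, the oxysterol receptor LXRα, is on the minus strand (chr2:91195117-91195366) within a region of 1835 bp with a fold enrichment of 14.7, and this window held no match.
Creb5: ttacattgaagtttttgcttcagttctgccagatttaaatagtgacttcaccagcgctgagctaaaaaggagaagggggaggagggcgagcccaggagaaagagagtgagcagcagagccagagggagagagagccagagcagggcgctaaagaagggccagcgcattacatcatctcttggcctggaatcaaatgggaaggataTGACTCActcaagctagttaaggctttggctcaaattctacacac
Dab2: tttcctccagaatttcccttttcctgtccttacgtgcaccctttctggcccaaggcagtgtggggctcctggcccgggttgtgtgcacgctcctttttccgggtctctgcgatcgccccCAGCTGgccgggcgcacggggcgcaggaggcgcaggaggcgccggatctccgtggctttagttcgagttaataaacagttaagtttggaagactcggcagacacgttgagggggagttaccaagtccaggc
Nr1h3: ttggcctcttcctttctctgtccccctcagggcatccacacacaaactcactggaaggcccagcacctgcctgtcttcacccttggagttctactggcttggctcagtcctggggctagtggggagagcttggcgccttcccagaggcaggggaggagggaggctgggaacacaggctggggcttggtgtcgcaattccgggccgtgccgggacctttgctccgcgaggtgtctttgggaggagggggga

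The motifs were searched on both strands of the 300 bases of each start window, and a match is a description of letters. In the 198 windows under control-only intragenic regions (178 genes), the PU.1 string GAGGAAGT was found in 13 (6.57%). It was found in 0 of 100 windows under regions of the list labelled BN1 only, in 24 of 750 under shared intragenic regions (3.2%), in 1.95% of 2358 intragenic windows under no region and in 3.0% of all 21006 protein-coding start windows with distinct sequence. PU.1 is the ETS factor that macrophages and B cells depend on. The GATA string AGATAA was less frequent under control-only regions, in 3.54% of the windows, than under BN1-only regions (7.0%), in intragenic windows under no region (12.9%) and in all windows (9.60%). C/EBP (TTGCNNAA) was in 14.1% under control-only and 15.0% under BN1-only regions, in 11.7% under no region and in 10.2% of all. AP-1 (TGANTCA) was in 10.1, 7.0, 8.78 and 6.99% in that order, and the E-box (CAGCTG) in 20.2, 27, 20.8 and 15.7%. The E-box share under control-only regions was thus below that under BN1-only regions and near that under no region. In the same order, RUNX (TGTGGTT) was in 2.53, 3.0, 6.06 and 4.72%, IRF (the interferon response element) in 2.02, 5.0, 3.18 and 3.36%, and MITF (TCACGTGA) in 0.505, 0, 0.424 and 1.25%. ETS (CCGGAAGT, which shares GGAAGT with the PU.1 string) was in 3.03, 2.0, 0.594 and 5.21%, above the intragenic windows under no region and below all windows. Base composition differed among these sets, with a median of 11.5 CG dinucleotides per window under control-only regions, 8 under BN1-only regions, 21 under shared regions, 5 in intragenic windows under no region and 13 over all. Its part in the motif shares was not tested.

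A few regions lay over a microRNA hairpin, a short RNA precursor processed from an intron or a transcript of its own. The 9112 control-only intragenic regions overlapped 13 hairpins, the 3291 BN1-only ones 2 and the 2198 shared ones 6. Per region, the shared ones thus overlapped the most, but they were also the widest, with a median of 1472 bp against 482 and 441 bp. The control-only, BN1-only and shared ones covered 6.909, 2.108 and 3.985 Mb. Per covered Mb, the control-only ones overlapped the most. The hairpin in the region with the highest fold enrichment, 22.4 over 2126 bp, was Mir3109 in Anxa2, which encodes the membrane-binding annexin A2 (chr9, plus strand). The next was Mir3092 in Fndc3b (chr3, minus strand; 14.7 over 1329 bp), and the region of Mir26b, a microRNA that lies with its host Ctdsp1 (chr1, plus strand), was short and weak at 226 bp and 3.29. Mature RNAs from these hairpins, as RefSeq (GRCm38.p6) gives them, are shown with the seed, bases 2 to 8, in capitals.
mmu-miR-3109-3p: uAGGGCCAucucauccagaua
mmu-miR-3109-5p: aAUGGAUGcgaugguucccaugcu
mmu-miR-3092-3p: gAAUGGGGcuguuuccccucc
mmu-miR-26b-5p: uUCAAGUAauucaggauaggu

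Control-only intragenic regions were mostly short and of modest enrichment. Their median width was 482 bp (quartiles 303 and 889, longest 9002), and their median fold enrichment, the authors' value at the summit, was 5.03 (quartiles 4.04 and 6.96, highest 45.2). Within the same list, regions at gene ends that were control-only had a median of 5.60, those between genes 5.41, and the control peaks of shared intragenic regions 8.96. A fold enrichment of at least 10 was reached by 1002 control-only intragenic regions (11.0%), and a width of at least 2 kb by 609 (6.68%). The −log10 q was at least 10 for 2720 of them (29.9%), so most lay in the weaker part of the list.

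**Figure D1:**
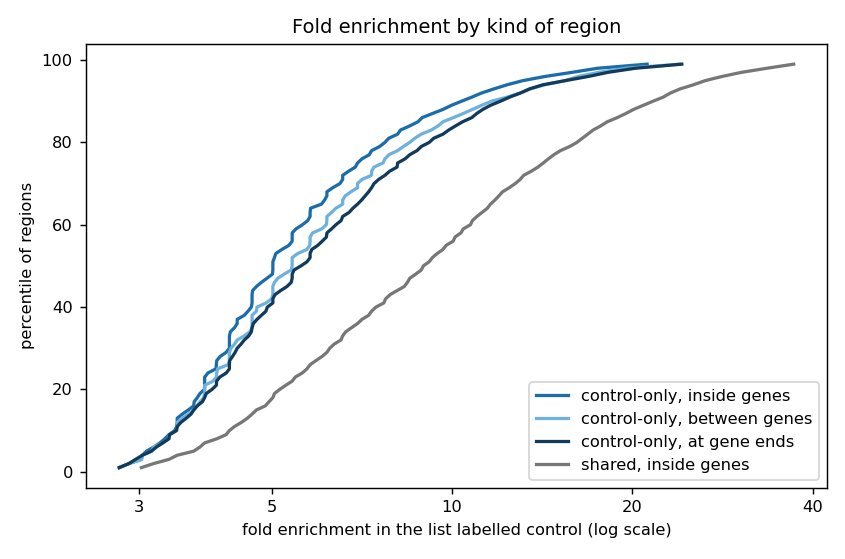
Percentile of regions (vertical axis) against the authors' fold enrichment in the list labelled control (horizontal axis, log scale), for the 9112 control-only intragenic regions, control-only regions between genes and at gene ends, and the control peaks of shared intragenic regions. The control-only curves run close together, with medians of 5.03, 5.41 and 5.60, and the shared curve lies to their right with a median of 8.96.

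At the edge of the rule, the region closest to a peak of the list labelled BN1 was 3 bp away, in Sergef (978 bp wide, fold enrichment 4.15), and 30 regions lay within 100 bp of one. Just outside, 25 shared intragenic regions rested on less than 100 bp of overlap, among them one in Xylt1 whose peaks only adjoined and one in Inpp5d that overlapped by 9 bp. The region closest to the gene end window was in Rplp0, 1001 bp from an end. These are few against 9112. The median distance to the nearest BN1 peak was 15754 bp, with 9.59% of the regions within 1 kb, 27.2% within 5 kb and 74.0% within 50 kb of one.

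The regions occurred in groups. Another control-only intragenic region lay within 5 kb of 5436 of them (59.7%, interval 58.6 to 60.7), whereas 49.9% (48.1 to 51.6) of the intragenic regions of the list labelled BN1 only had one of their own kind that near. Such nearness is mutual, so the regions are not independent trials and the intervals of this share are likely too narrow. With the lists limited to equal length, the share for control-only regions was 41.1% (39.7 to 42.6), below the 49.9% of BN1-only regions in the full lists. The BN1-only share at equal length is not given here, so the higher control-only share holds for the full lists only. That setting drops the weaker control peaks, and the part of peak number in the spacing was not tested. A shared region lay within 5 kb of 25.5% (24.6 to 26.4) of the control-only and 25.6% (24.1 to 27.1) of the BN1-only intragenic regions. Chained at 5 kb, the 9112 regions formed 5661 groups, of which 3676 were single regions, 772 held at least 3 and 180 held at least 5 regions.

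The 5 longest chains by covered length were at Chchd6 (chr6:89404523-89425115, 7 regions, 17193 bp), Niban2 (chr2:32882917-32919577, 16 regions, 16508 bp), Nav1 (chr1:135616787-135638746, 3 regions, 14311 bp), Arhgap22 (chr14:33229884-33249193, 5 regions, 12982 bp) and Mitf (chr6:97814104-97832366, 6 regions, 12871 bp). Their strongest regions had fold enrichments of 36.1, 10.8, 28.8, 16.4 and 18.5 in that order. Chchd6 and Nav1 thus combined length with high enrichment, whereas Niban2 was a dense row of weaker regions. Chains of over 10 kb were also found at Anxa4, Rab8b and Prkcd.

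For the 7266 control-only regions that lay in a single gene of known strand, the median distance from the outermost annotated start was 28.1 kb (quartiles 9.98 and 76.2). For 2573 BN1-only intragenic regions it was 29.9 kb (11.0 and 74.6), and for 1804 shared intragenic regions 18.7 kb (6.21 and 52.0). Of 5 equal parts of the gene, the one at the start held 23.9% of the control-only regions and the one at the end 13.7%. The BN1-only regions had 20.9% and 15.6% there, and the shared ones 30.3% and 9.09%. The control-only regions thus lay between the others in both shares. Intron and exon positions were not analysed here.

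The regions lay in 3466 of 21887 protein-coding genes, which is 15.8% of all genes, and BN1-only intragenic regions lay in 1725, or 7.88%. A single region was found in 1627 of the 3466 genes, at least 3 in 1124, at least 10 in 112 and at least 20 in 10. The 112 genes with at least 10 regions held 1511 regions (16.6%). By comparison, 17 genes had at least 10 BN1-only intragenic regions and none had 20. Both kinds of region were present in 693 genes, which is 20% of the genes with a control-only and 40.2% of those with a BN1-only intragenic region. More length in control-only than in BN1-only regions was found in 14.8% of all genes and the reverse in 5.7%. The genes were long, with a median of 52.6 kb against 17.2 kb over all protein-coding genes and 59.6 kb for genes with a BN1-only intragenic region.

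Gene length and the state of the gene start both went with the presence of such a region. The share of genes with at least 1 was 2.75% below 10 kb, 13.7% from 10 to 30 kb, 26.6% from 30 to 100 kb, 41.6% from 100 to 300 kb and 42.6% above. Per Mb of gene length, however, the regions were sparsest in the longest class, at 3.43 against 12.3 from 30 to 100 kb. Within each class the share was higher among genes acetylated at the start in both lists than among those acetylated there in neither, for example 34.5% against 15.5% from 30 to 100 kb and 59.7% against 26.4% from 100 to 300 kb.

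Most of these genes were acetylated at the start in both libraries. Of 2783 genes with a control-only intragenic region and a known strand, 1643 (59.0%, interval 57.2 to 60.9) had a peak of each list within 1000 bp of the start. A control peak alone was there at 344 (12.4%), a BN1 peak alone at 57 (2.05%), and no peak at 739 (26.6%). Over all 17492 genes of known strand these shares were 38.2, 6.16, 2.87 and 52.8%. With at least 10 regions in a gene, the control-only share was 18.5% (17 of 92 genes, interval 11.2 to 27.9). Genes with a BN1-only intragenic region showed the converse, with 5.47% control-only and 10.1% BN1-only starts. The rule kept regions out of these start windows, and the peaks there come from the same 2 libraries, so the shares are a description.

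By covered length, 25 genes led, each with at least 14601 bp in 8 to 23 control-only intragenic regions. Of these 25 genes, 9 had no BN1-only intragenic region, and 6 had neither a BN1-only nor a shared one: Nav1, Chchd6, Zranb3, Mitf, Pkd1l2 and Dab2. A peak of each list lay at the start of 11 of the 25, a control peak alone at 7 and no peak at 7. The order of these genes comes from the values that chose the regions and is given as a description.

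**Figure D2:**
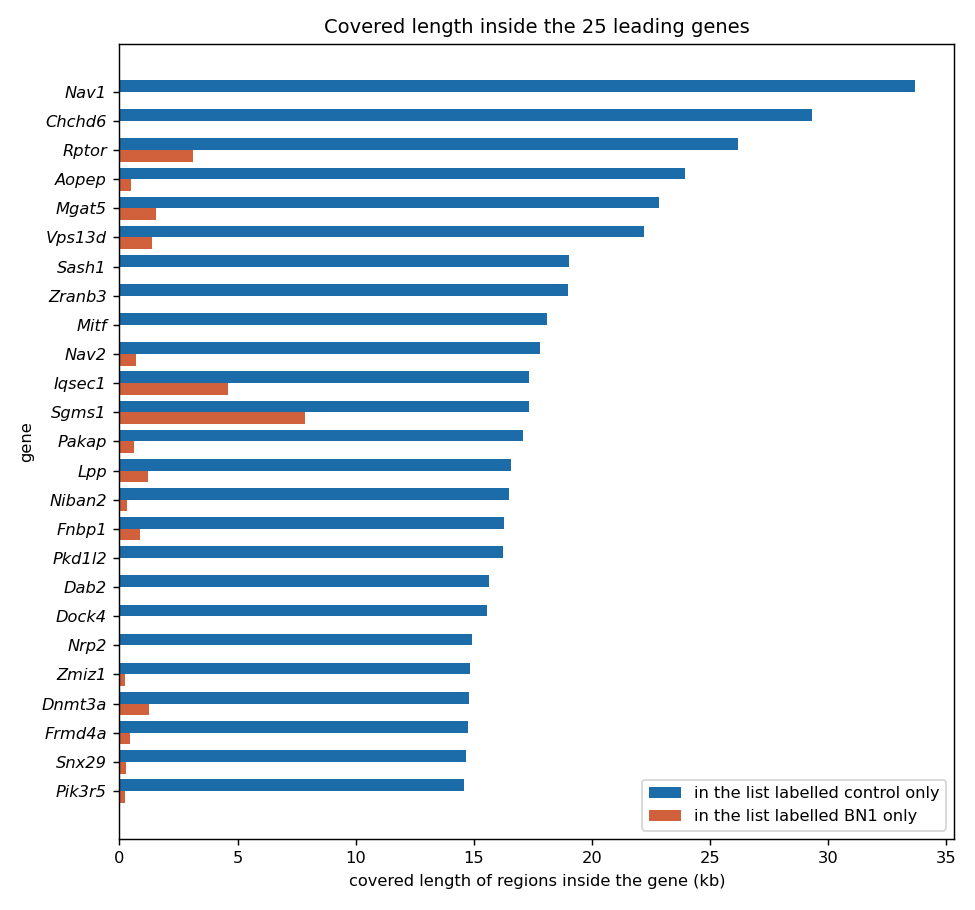
Covered length in kb (horizontal axis) of regions inside each of the 25 leading genes (vertical axis) that were called in the list labelled control only (blue) or in the list labelled BN1 only (orange). Blue bars run from 14601 bp at Pik3r5 to 33659 bp at Nav1, and the longest orange bar is 7846 bp at Sgms1.

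Nav1, a microtubule-associated guidance protein (chr1:135434580-135688350, minus strand), held 14 regions over 33659 bp, or 13.3% of its length. Their fold enrichments ran from 2.54 to 29.7 with a median of 9.60, and the widest, 9002 bp, was the widest of all 9112. No peak of the list labelled BN1 lay in the gene, and its start was acetylated in the list labelled control only. Chchd6, a subunit of the mitochondrial cristae-organising complex (chr6:89383146-89595652), held 13 regions over 29313 bp with fold enrichments up to 36.1, and nothing else inside. Its start was acetylated in both lists, so the difference between the lists lay within the gene.

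Rptor, which encodes the mTORC1 subunit raptor (chr11:119602905-119899591), held 23 control-only regions over 26183 bp, 4 BN1-only regions over 3133 bp and 1 shared region. Aopep, an aminopeptidase gene (chr13:62964893-63326096), had 20 over 23931 bp against 1 of 493 bp. Mgat5, an N-glycan branching enzyme (chr1:127204919-127488334), had 20 over 22832 bp against 2 over 1529 bp. Vps13d, a lipid transfer protein at organelle contacts (chr4:144871045-145195037), had 18 over 22183 bp against 3 over 1394 bp. Shared regions inside covered 1950 bp at Rptor, 3977 bp at Aopep, 5734 bp at Mgat5 and 7930 bp at Vps13d. In all 4 genes the start was acetylated in both lists. Control-only regions covered more of the interior than shared or BN1-only ones did.

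**Figure D3:**
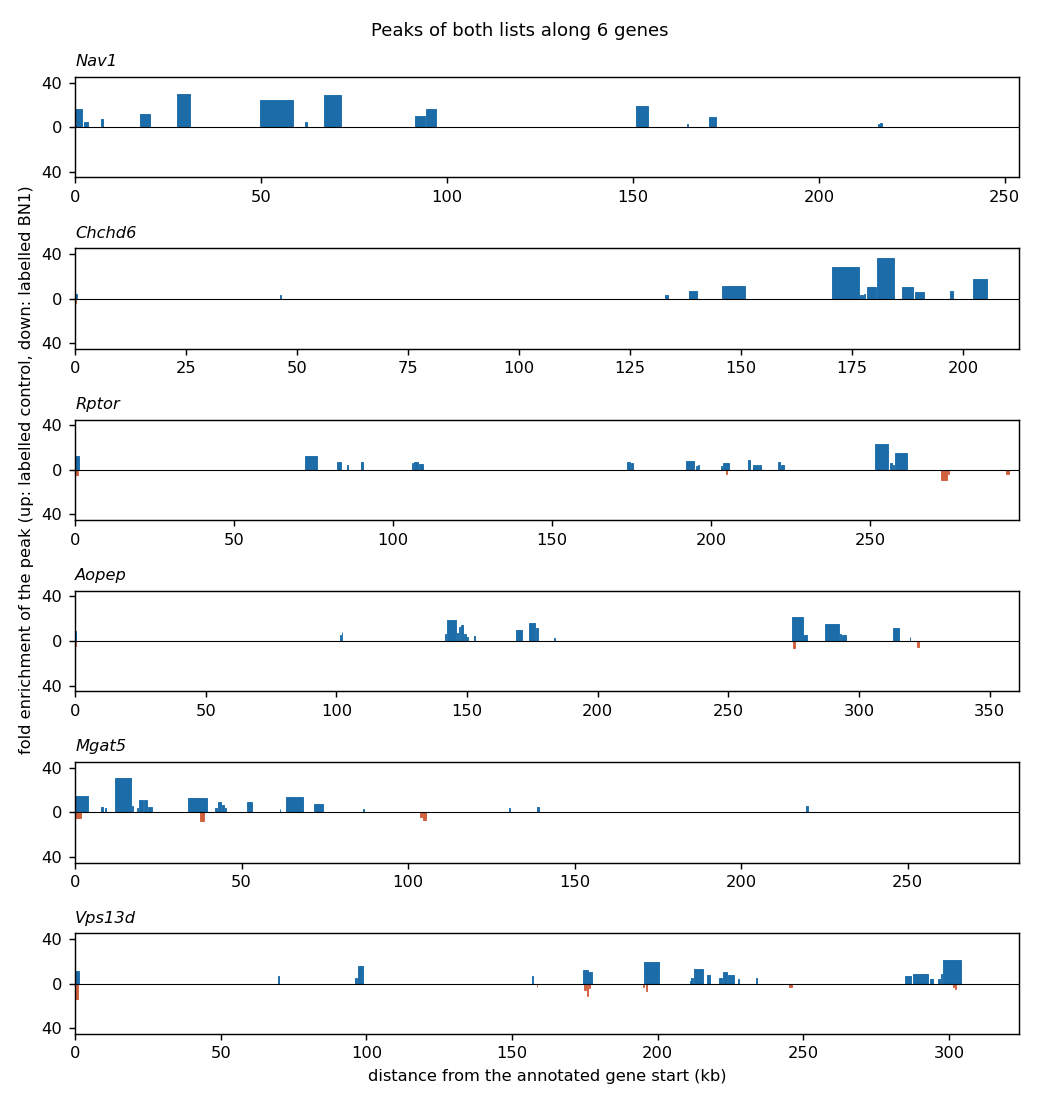
Peaks of both lists along Nav1, Chchd6, Rptor, Aopep, Mgat5 and Vps13d, with distance from the annotated start in kb (horizontal axis) and the authors' fold enrichment as bar height (vertical axis, labelled control upward, labelled BN1 downward; heights are each list's own and are not comparable between lists). Shared peaks are drawn too; Nav1 shows no downward bar, and Rptor shows 1 BN1 peak close to the start and the others beyond 204753 bp from it.

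Mitf, the melanocyte, mast cell and osteoclast factor of the MiT/TFE family (chr6:97807002-98021360), held 12 regions over 18115 bp (highest fold enrichment 18.5), with a start acetylated in the list labelled control only and no peak of the list labelled BN1 inside. Zranb3, a DNA repair translocase (chr1:127954179-128103053), held 20 regions over 18979 bp, again with none of the other kinds inside. Dab2 (chr15:6299788-6440715) had 13 over 15641 bp and no peak at its outermost start in either list, and its widest region covers the internal start shown above. The neuropilin gene Nrp2, a semaphorin and VEGF co-receptor (chr1:62703317-62818692), had 16 over 14917 bp and a control-only start.

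Sgms1, a sphingomyelin synthase (chr19:32122727-32389885), was the most mixed of the 25, with 23 control-only regions over 17328 bp, 9 BN1-only regions over 7846 bp and 9 shared ones over 14054 bp. Niban2 (chr2:32876134-32925253), at 49.1 kb the shortest, had 33.6% of its length covered by 16 regions of modest enrichment (median 4.52). Pik3r5, the regulatory subunit of PI3-kinase gamma (chr11:68432125-68497849), came next in share covered, with 22.2% in 10 regions. Zmiz1, a transcriptional coregulator (chr14:25457875-25666743), held 22 regions but weak ones, with a median fold enrichment of 4.0 and none above 7.83, among 7 shared regions over 29026 bp. Its covered length of 14841 bp was 5123 bp with lists of equal length and 2739 bp with a control −log10 q of at least 10. Dnmt3a, the DNA methyltransferase mutated in myeloid leukaemia (chr12:3801559-3914443), held 8 wide ones over 14782 bp against 1 BN1-only region of 1268 bp.

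The remaining genes of the 25 were Sash1 (21 regions), Nav2 (16), Iqsec1 (8), Pakap (14), Lpp (21), Fnbp1 (13), Pkd1l2 (12), Dock4 (17), Frmd4a (16) and Snx29 (15). Several serve the cytoskeleton and membrane traffic: Lpp is a focal adhesion protein, Fnbp1 a membrane-bending protein of endocytosis, Dock4 an activator of Rac and Iqsec1 an activator of Arf6. Iqsec1 had the strongest single regions of these, up to a fold enrichment of 36.2, together with 4 BN1-only regions over 4605 bp.

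Ranked by fold enrichment, the strongest control-only intragenic region was in Clmp, an adhesion molecule gene (chr9:40779742-40784447, fold enrichment 45.2, nearest BN1 peak 13914 bp away). The next were in Anxa4, annexin A4 (chr6:86770802-86773921, 44.0), in the predicted genes Gm27021 and 1190005I06Rik (chr8:120618343-120622195, 42.1) and in Cntn4, a neural adhesion gene (chr6:106440284-106442301, 37.5). Iqsec1, Chchd6, Frmd4b, Mdfic and Lcp1 held the remaining 6 of the first 10, with values down to 31.3. Of these 10 regions, 7 lay on chromosome 6. The widest regions after that in Nav1 were in Ptprm, a receptor tyrosine phosphatase (8044 bp), Sdc3, a syndecan (8005 bp), Tnip1, an inhibitor of NF-kB signalling (7924 bp) and Sh3bp2, an adaptor of osteoclasts and macrophages (7511 bp). Stab1, the scavenger receptor stabilin-1 of macrophages and sinusoidal endothelium (7001 bp), and Igf2r, the lysosomal sorting receptor (6373 bp), were also among the 10 widest.

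By chromosome, density ran from 2.41 control-only intragenic regions per Mb of gene body on X to 12.2 on chromosome 11, with 8.83 over all, and there was none on Y. BN1-only intragenic regions had a density of 3.19 over all and were also sparsest on X (0.548). The number of control-only per BN1-only intragenic region was 2.77 over all. It was highest on chromosome 6, at 4.44 (679 against 153), followed by X at 4.40 and chromosome 1 at 4.12, and lowest on chromosome 17 at 1.94. Chromosome 6 also held 18 of the 108 control-only intragenic regions with a fold enrichment of at least 20 (16.7%), against 7.45% of all such regions, although the median on that chromosome, 4.81, was not above the overall 5.03. Among all control peaks of at least 20-fold, 8.60% were on chromosome 6, and among all BN1 peaks of at least 20-fold, 5.23%. The number of control peaks per BN1 peak, in any place, was 1.93 on chromosome 6 and 1.48 over all, so the excess there was not limited to intragenic regions.

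**Figure D4:**
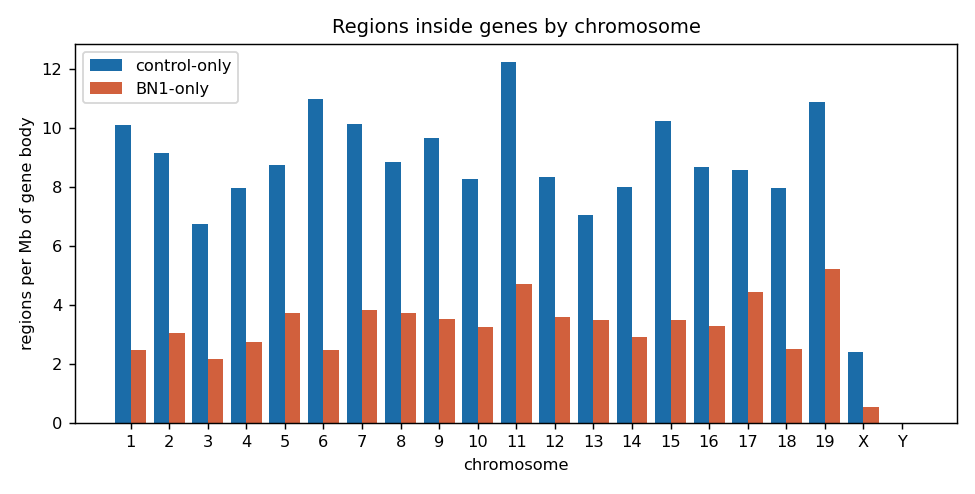
Control-only (blue) and BN1-only (orange) intragenic regions per Mb of protein-coding gene body (vertical axis) on each chromosome (horizontal axis). Blue bars exceed orange ones on every chromosome but Y, which had neither, and X is the lowest of the others with 2.41 and 0.548.

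The genes were next described by 25 lists of cell type markers and pathways, with 748 of 749 distinct names found. For each list, the genes with a control-only intragenic region were counted beside those with a BN1-only one, for which 15.8 and 7.88% of all protein-coding genes form the background. Density per Mb of gene length is given too, because long genes hold more regions, with 8.83 and 3.17 over all genes counted gene by gene. Several lists hold genes already known from these data to be widely acetylated (Nav1, Rptor, Mgat5, Vps13d, Lrp1, Creb5, Mitf and Zmiz1), so the lists are not independent evidence of a direction. The share of genes was above the background in 18 lists and the density in 19. Several pathway lists hold long genes, with a median of 63.5 kb for MAP kinase, 86.1 kb for chromatin regulator and 89.7 kb for phosphoinositide genes. Over all genes the median was 17.2 kb, so the background share is low for such lists.

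**Figure D5:**
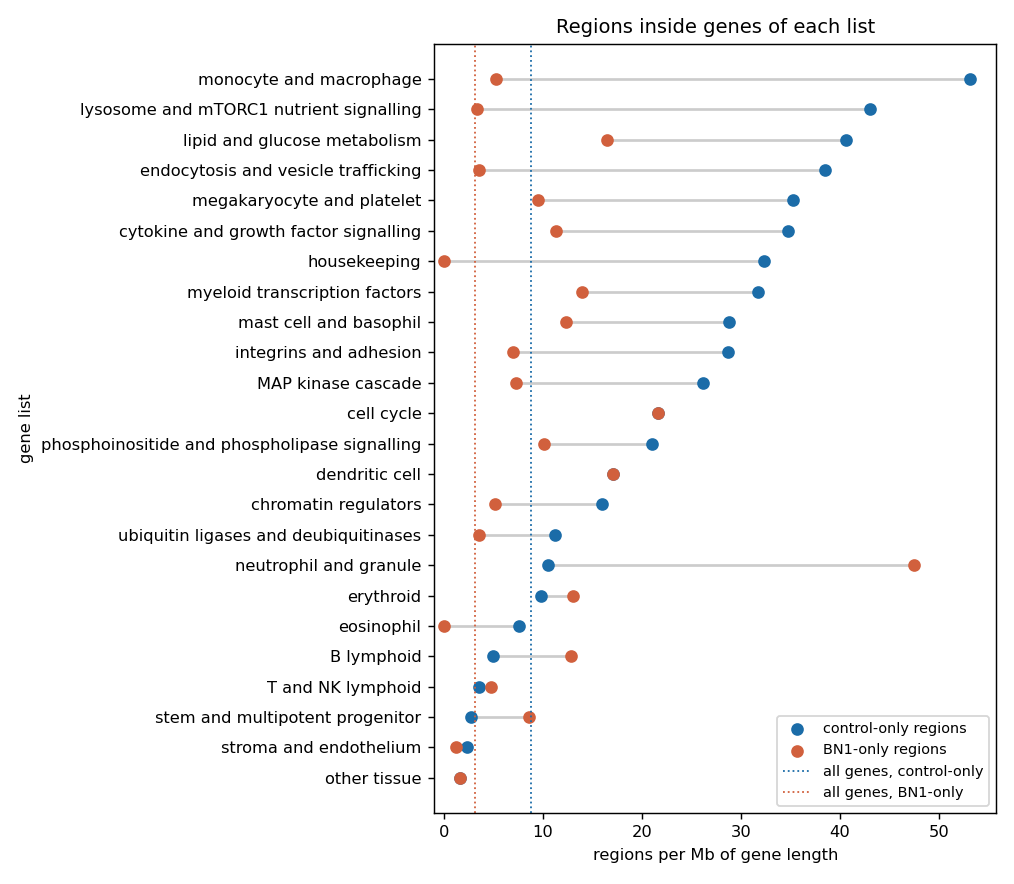
Control-only (blue) and BN1-only (orange) intragenic regions per Mb of gene length (horizontal axis) for 24 of the lists (vertical axis), with dotted lines at the values over all protein-coding genes, 8.83 and 3.17. The monocyte and macrophage list is highest in blue at 53.2, the neutrophil and granule list is highest in orange at 47.5, and the cell cycle, dendritic cell and other tissue lists show a single point because both densities are equal.

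Monocyte and macrophage genes had the highest density, 53.2 control-only intragenic regions per Mb against 5.21 BN1-only ones. Of 22 genes, 12 held a control-only and 4 a BN1-only region, and the median gene held 274 bp of control-only regions, where the median over all genes was 0. More length lay in control-only than in BN1-only regions in 11 of the 22 genes, and the reverse held in 3. Cd36, the scavenger receptor for oxidised lipoproteins and fatty acids (chr5:17781690-17888959), held 21 of the list's 51 control-only regions, over 9955 bp. The density of the list thus leaned on this 1 gene, which had no peak at its start in either list. Mertk, the receptor kinase for uptake of dying cells (chr2:128698915-128803162), held 8 over 8032 bp and had a control-only start. Cd86, a costimulatory ligand (chr16:36568956-36666158), held 8 over 4599 bp, and Msr1, the class A scavenger receptor (chr8:39543232-39642750), 4 over 2138 bp. None of these 4 genes held a BN1-only intragenic region. With both lists at equal length the counts of genes were 6 and 4.

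Neutrophil and granule genes went the other way, on few regions. Control-only regions lay in 2 of 22, Mmp9 (1 region of 389 bp, beside 3 BN1-only regions over 1593 bp) and Mmp8 (1 of 234 bp), both genes of secreted proteases, against 5 with a BN1-only region, and the densities were 10.6 and 47.5 per Mb. These genes are short, with a median length of 5.56 kb, and genes below 10 kb held a control-only region in 2.75% of cases. The list's densities rest on 2 control-only and 9 BN1-only regions, and its control-only density was above the 8.83 of all genes. The counts of genes were 0 and 5 with lists of equal length. With a −log10 q of at least 10 in both lists they were 0 and 1. B lymphoid genes held a control-only region in 4 of 22 cases and a BN1-only one in 8 (4.91 and 12.9 per Mb). Bach2, a repressor of B cells and of other lymphocytes (chr4:32238413-32586109), held both, 5 over 6552 bp and 4 over 1888 bp, with a start acetylated in the list labelled BN1 only. Erythroid genes stood at 4 and 5 of 22 and dendritic cell genes at 4 and 8 of 18.

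Stem and multipotent progenitor genes held a control-only intragenic region in 2 of 24 cases and a BN1-only one in 4, with 7 and 22 regions (2.73 and 8.58 per Mb). The 2 genes were Runx1 (3 over 7285 bp, with 4 BN1-only over 5038 bp) and Ptprc (4 over 1707 bp, with 3 shared). Ptprc encodes CD45, the antigen by which the cells are labelled. Kit, the gene of the other sorting marker, held no region of any kind and had no peak at either end in either list. Lists of cells outside the blood were low on both sides, with 2 and 1 of 20 for stroma and endothelium and 1 and 1 of 21 for other tissues. T and NK genes stood at 3 and 3 of 24, eosinophil genes at 1 and 0 of 10, and mast cell and basophil genes at 2 and 1 of 14, where Mitf made up 12 of the 14 control-only regions. In Il1rl1, the interleukin-33 receptor, lay the other 2. Megakaryocyte and platelet genes held a control-only region in 8 and a BN1-only one in 5 of 20, but in 4 and 5 with lists of equal length. Itgb3, the platelet and osteoclast integrin beta 3, led with 7 over 5033 bp against 3 over 2136 bp. Plek followed with 4 over 4996 bp against 1 of 405 bp.

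Endocytosis and vesicle trafficking genes gave 31 and 10 of 42 (38.5 and 3.56 per Mb), and 28 and 12 with lists of equal length. After Vps13d and Snx29, Rab8b, a small GTPase of exocytic traffic (chr9:66843609-66919705), held 12 regions over 13041 bp against 1 of 408 bp. Lrp1, the large endocytic receptor (chr10:127538157-127621148), held 13 over 11406 bp and no BN1-only one, with a control-only start. Ehd4, a membrane-remodelling ATPase (chr2:120089487-120154575), held 9 over 9713 bp and no BN1-only one.

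Lysosome and mTORC1 genes had regions in 18 and 4 of 40 cases (43.0 and 3.35 per Mb). Besides Rptor and Mitf, Fnip2, a partner of folliculin in nutrient sensing (chr3:79455971-79568151), held 11 over 7730 bp. Atp6v1a, the catalytic subunit of the proton pump that acidifies lysosomes (chr16:44085402-44139702), held 9 over 6420 bp, and Rragc, a GTPase that brings mTORC1 to the lysosome (chr4:123917433-123936997), 6 over 2915 bp. None of these 3 held a BN1-only region, and all had a start acetylated in both lists. The list's median gene nevertheless held 0 bp.

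Lipid and glucose metabolism genes stood at 26 and 13 of 39 (40.6 and 16.4 per Mb). After Mgat5, Pfkp, a phosphofructokinase of glycolysis (chr13:6579874-6649060), held 11 over 6058 bp, and Hk1, a hexokinase (chr10:62268855-62379920), 5 over 6047 bp against 1 of 428 bp. The nuclear receptors Pparg (chr6:115360879-115490404; 7 over 4189 bp, control-only start) and Nr1h3 (chr2:91184061-91202829; 3 over 3522 bp, start in both lists), which control lipid uptake and cholesterol efflux in macrophages, held no BN1-only region.

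Phosphoinositide and phospholipase genes held a control-only region in 28 and a BN1-only one in 20 of 42 cases (21.0 and 10.1 per Mb). The counts were 18 and 22 with lists of equal length. They were 22 and 17 with a −log10 q of at least 5 in both lists, and 14 and 9 with at least 10. This list's direction was thus reversed with lists of equal length, which drops control peaks only, and kept with the same minimum in both lists. Prkcd, protein kinase C delta (chr14:30595353-30626414; 4 over 10951 bp against 2 over 812 bp), and Pik3cb, a PI3-kinase catalytic subunit (chr9:99038402-99140235; 13 over 9847 bp against none), followed Pik3r5. Prkcb, protein kinase C beta (chr7:122289104-122634402), was mixed, with 8 over 9081 bp and 11 over 6117 bp.

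Integrin and adhesion genes gave 21 and 11 of 38 (28.7 and 6.98 per Mb). Ptk2b, the adhesion kinase PYK2 (chr14:66153257-66281100; 13 over 13802 bp against 3 over 1356 bp), and Itgb2, the leukocyte integrin beta 2 (chr10:77530329-77565708; 4 over 7072 bp against none), were among the leading members. Cytokine and growth factor signalling genes gave 25 and 11 of 51 (34.8 and 11.3 per Mb). They were led by Lyn, a Src-family kinase (chr4:3678068-3791612; 12 over 6034 bp against none). Ifngr2, a chain of the interferon gamma receptor, held 3 over 3936 bp against none. MAP kinase genes gave 28 and 11 of 46 (26.2 and 7.3 per Mb), led by Mapk14, the stress kinase p38 alpha (6 over 4198 bp against none). Ubiquitin ligases and deubiquitinases gave 24 and 9 of 45 at a density near that of all genes (11.2 per Mb).

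Myeloid transcription factor genes were acetylated inside in both libraries, with 24 and 15 of 51 (31.8 and 13.9 per Mb), and with 20 and 19 when the lists had equal length. Creb5 (chr6:53287226-53700364) held 9 over 13891 bp against 2 over 952 bp, and Elk3, an ETS repressor (chr10:93247415-93311159), 9 over 10601 bp against none. Foxp1, a forkhead factor of B cells and monocytes (chr6:98925342-99522746), had 11 over 10026 bp but 16 BN1-only ones over 18356 bp, the most BN1-only intragenic length of any gene. Etv6 (11 over 7807 bp and 9 over 4737 bp) and Runx1, both frequent partners in leukaemia fusions, were mixed as well.

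Chromatin regulators gave 24 and 12 of 51 (15.9 and 5.14 per Mb), and 14 and 13 with lists of equal length. Besides Zmiz1 and Dnmt3a, Tet3, which oxidises methylcytosine (chr6:83362373-83457208), held 7 over 8629 bp against 1 of 293 bp. Brd9 and Ep300, the genes of the fusion partner and of p300, held no intragenic region of any kind and had a start acetylated in both lists. Cell cycle genes stood at 8 and 5 of 31, and at 5 and 7 with lists of equal length, with 20 regions on each side. Cdk6, the kinase partner of D cyclins (chr5:3341004-3531008), held 6 control-only regions over 4865 bp and 6 BN1-only ones over 3840 bp. Ccnd1, cyclin D1 (chr7:144929931-144939831), held 5 over 2839 bp against none. Housekeeping genes held a control-only region in 4 of 18 cases and a BN1-only one in none, led by Polr2a, the largest subunit of RNA polymerase II (2 over 2082 bp). Their densities were 32.3 and 0 per Mb, where all genes had 8.83 and 3.17. A density above that of all genes was thus found in this comparison list too.

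The starts of the marker genes, windows that the rule kept free of the described regions, differed between lists of cell types. A BN1 peak alone lay at the start of 11 of 20 neutrophil and granule genes of known strand, of 10 of 16 erythroid genes and of 8 of 17 B lymphoid genes, where a control peak alone lay at 0, 0 and 1. Of 14 monocyte and macrophage genes, a control peak alone lay at the start of 3 and a BN1 peak alone at 1. Over all genes these shares were 6.16% for control and 2.87% for BN1. Their part in the intragenic differences, and which cells or labels they go with, was not tested.

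At least 3 control-only and at least 3 BN1-only intragenic regions were found together in 100 genes, of which 31 had more length in BN1-only ones. Foxp1, Prkcb, Etv6, Cdk6 and Runx1 are such genes, as are Aff1, an elongation factor gene fused in leukaemia (14 over 8626 bp and 8 over 6026 bp), and Akap13, an anchoring protein of protein kinase A (16 over 12047 bp and 6 over 4144 bp). In these genes each list had peak calls without a counterpart in the other within one gene body. Shared regions were present too, for example 10 in Foxp1, 4 in Prkcb and 5 in Cdk6. The genes with the most BN1-only intragenic length after Foxp1 held few control-only regions: Erg, an ETS factor (15 BN1-only over 14562 bp), Ripor2, Gsr, glutathione reductase, and Gfod1 held none, while Fam53b held 4 over 5018 bp.

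Limiting the longer list to as many peaks, by −log10 q, as the shorter holds left 4514 control-only intragenic regions against 3689 BN1-only ones, in 2321 and 1874 genes. The excess in number was smaller in this setting, which drops only the weaker control peaks and keeps every BN1 peak. A shared region whose control peaks are dropped counts there as BN1-only. In the full lists the BN1-only intragenic regions numbered 3291, in 1725 genes. With a −log10 q of at least 10 in both lists, the genes numbered 1877 and 824. The part of list length in the excess was not tested. All of the 25 leading genes still held a control-only intragenic region with lists of equal length, and 22 of them stayed among the first 50 genes. The other 3 were Zmiz1, at 5123 bp, Nrp2, at 8591 bp, and Snx29, at 9349 bp. The length also fell by over 1.5 times at Niban2 (10282 bp), Sgms1 (10794 bp) and Sash1 (12380 bp). With the ends of all RefSeq genes barred, 23 of the 25 stayed among the first 50. The others were Dnmt3a, at 9648 bp, and Nrp2, at 8628 bp.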

How the data were processed

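H3K27ac fanChIP libraries of marrow cells were analysed as 1 peak list per group, control ChIP and BN1 ChIP, grouped by sample title. The 2 input samples have no peak list here and were not used. Read depth is unknown.

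The lists are narrowPeak files without headers. Bowtie2 2.5.4, Picard 3.2.0, deepTools 3.5.1, MACS3 3.0.1 and mm10 (GRCm38) are named, per the submitters' processing notes, without their roles. Calling threshold, input use and pooling are not given. Deposited values are the fold enrichment at the summit (a ratio), the −log10 p and −log10 q of each peak, and a score that was not used.

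Peaks on chromosomes 1 to 19, X and Y were merged at a distance of 0 bp (checked with bedtools 2.31.1, 34906 regions either way). For a merged region, the highest fold enrichment and −log10 q of its control peaks were taken. Genes were the 21887 protein-coding genes of a RefSeq table (GRCm38.p6), and strand, start windows and microRNAs came from RefSeq sequence tables of that build (strand for 17492 genes). No genome sequence was used, so regions away from starts and hairpins have no sequence here. Shares have exact (Clopper-Pearson) 95% intervals. Classification was tested on simulated regions.

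Members and lists were chosen with earlier results of these data known. Named genes are the 25 with the most control-only intragenic bp (predicted genes left out), the genes of the 10 strongest and 10 widest regions, up to 5 leading genes of each list, the regions nearest to each threshold, the 10 genes with the most BN1-only intragenic bp, and genes with at least 3 regions of each kind. Kit, Brd9, Ep300, the microRNA hosts and the chain examples were added after their values were seen. Alternatives were stricter −log10 q minimums, lists of equal length, and other merge, window and gene rules. Scripts used scipy 1.17.1, pandas 2.3.3, matplotlib 3.10.9 and numpy 2.4.6 under Python 3.11.15. Results for 1 of the 25 lists and for 1 further gene are not reported here.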

Additional observations from a re-analysis of the deposited data

How the results depend on the processing

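The number of control-only intragenic regions, 9112 in the full lists, was 5775 with a −log10 q of at least 5 in both lists, 3198 with at least 10 and 4514 with lists of equal length. It was 2720 with at least 10 in the control list alone, an alternative chosen after seeing the data, under which the covered length was 3.86 Mb. The genes with such a region numbered 1877 with at least 10 in both lists and 1668 in the control list alone. In the order at least 5, at least 10, equal length, merging at 500 bp and at least 10 in the control list alone, the median fold enrichment was 6.57, 8.89, 6.96, 5.41 and 8.84. In the same order, the share with another such region within 5 kb was 46.8, 30.8, 41.1, 36.8 and 28.5%, the median distance to a BN1 peak 21478, 30879, 19227, 20600 and 20349 bp, and the share of genes with such a region that were acetylated at an end in both lists, 59.8% at first, 54.2, 46.7, 55.4, 57.4 and 51.9%. That last share was 56.8% with a gene end window of 500 bp and 62.9% with 2500 bp, where the distance was 17702 bp. The stricter settings test fewer peaks, and the other causes were not tested. Leaving out Y and placing regions by their centre gave the same values, and barring the ends of all RefSeq genes gave 8690 regions over 6.495 Mb in 3346 genes, a distance of 15875 bp and shares of 58.9 and 60.3%. Counts of genes moved by over 1.5 times in 11 of 25 lists with lists of equal length and in 16 with at least 10 in both lists. No paired analysis was possible because each group had 1 library, and none could be left out in turn. Unknown depth limits how an absent peak can be read.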
